A study of Caenorhabditis elegans with 2 samples.

Results

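The 72 protein-coding genes named his- in the worm genome, out of 19973 nuclear protein-coding genes, are described here by the anti-GFP ChIP-seq peaks near their 5′ ends. Members were taken by name from the Ensembl annotation of WBcel235, the assembly also called ce11. For each member the strongest peak was read whose summit lay from 1000 bp upstream to 500 bp downstream of the 5′ end, called the window from here on. The data come from 2 biological replicates of the early embryo of Caenorhabditis elegans, at an age of 2 hours and synchronised by egg bleaching. The embryos were of strain OP756 and mixed sex. They carry the unc-119(tm4063) allele and the transgene wgIs756 (ceh-13::TY1::EGFP::3xFLAG with unc-119(+)), and chromatin sonicated to 200 to 800 bp was precipitated with an anti-GFP antibody. There was 1 transgenic line and no second group. Whole embryos were used, so all cell types are pooled. The description names anti-GFP, while the antibody tag of the labels reads ceh-13, and the description is followed here. The sequence that drives the transgene is not given in the sources used here.

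Histones package DNA into nucleosomes, made of the core histones H2A, H2B, H3 and H4, while the linker histone H1 binds between nucleosomes. Genes for the core histones are present in many near-identical copies and are expressed mainly while DNA is copied, which is frequent in the dividing cells of the early embryo. In the worm many are arranged as divergent pairs, H2A beside H2B and H3 beside H4, that share the DNA between their 5′ ends. H3.3 is a variant of H3 that is put into chromatin outside DNA replication as well. CEH-13 is a Hox transcription factor related to fly Labial, and it acts in the embryo.

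Of the 72 members, 17 were H2A, 16 H2B, 15 H3, 16 H4, 5 H3.3-type and 1 H1 genes. These types match the RefSeq product names, except that the product name of the H1 gene his-24 gives no type. The other 2 genes, his-39 and his-73, had no clear type, since their product names list H2A, H2B and H3 together. The 15 H3 genes encoded 1 distinct protein and the 16 H4 genes also 1, while the 17 H2A genes encoded 2 and the 16 H2B genes 4. Of the members, 62 stood in 31 divergent pairs: 16 were H2A with H2B, 14 were H3 with H4, and the pair his-67/his-68 joined H4 with H2A. The spacer between the facing 5′ ends had a median length of 258 bp, from 227 to 368 bp. Only 21 spacers were distinct, and 16 pairs had a spacer identical to that of another pair. The copies are so alike that the annotation gives 36 of the genes a name that another also carries (the name his-9 stands for his-9, his-13 and his-25), and they are told apart here by their RefSeq symbols, which were all different. The annotated 5′ end was the first coding base in 64 of the 72, so distances are to the start of the protein for most members.

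The sequences shown are 5 regions that hold a pooled summit of one of the stronger histone-gene peaks and 2 spacers that are repeated in the genome and had no peak. They are a selection: the regions of his-67/his-68, which had the strongest peak, and of his-61/his-62 are not shown. All are read 5′ to 3′ on the plus strand of the RefSeq reference sequence (ce11), and capitals mark CTCCNCC or its reverse complement, a short stretch of an element described in promoters of worm core histone genes. The 300 bases from chrIV:7487949-7488248 end at the first base before his-59 (H3, plus strand) and begin inside the coding sequence of his-60 (H4, minus strand). They hold the pooled summit at base 3.
his-60/his-59: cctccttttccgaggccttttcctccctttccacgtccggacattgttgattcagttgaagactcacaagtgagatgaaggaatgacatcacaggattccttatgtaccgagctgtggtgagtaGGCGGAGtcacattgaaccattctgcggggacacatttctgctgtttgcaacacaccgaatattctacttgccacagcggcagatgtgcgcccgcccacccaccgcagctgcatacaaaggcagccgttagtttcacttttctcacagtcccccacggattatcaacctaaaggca
The 300 bases from chrIV:8334005-8334304 lie between his-31 (H4) and his-32 (H3) and hold a pooled summit at base 177. The strongest pooled summit of this pair lay beyond his-32 and is not in these bases.
his-31/his-32: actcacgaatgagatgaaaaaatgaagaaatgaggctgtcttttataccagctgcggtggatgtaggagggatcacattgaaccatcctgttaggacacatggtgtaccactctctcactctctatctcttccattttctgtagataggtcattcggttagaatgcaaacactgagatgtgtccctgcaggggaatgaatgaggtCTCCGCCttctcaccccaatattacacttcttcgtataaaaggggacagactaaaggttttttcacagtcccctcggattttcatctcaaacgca
The 292 bases from chrV:16040516-16040807 are the whole spacer between his-4 (H2B) and his-3 (H2A), with the pooled summit at base 210.
his-4/his-3: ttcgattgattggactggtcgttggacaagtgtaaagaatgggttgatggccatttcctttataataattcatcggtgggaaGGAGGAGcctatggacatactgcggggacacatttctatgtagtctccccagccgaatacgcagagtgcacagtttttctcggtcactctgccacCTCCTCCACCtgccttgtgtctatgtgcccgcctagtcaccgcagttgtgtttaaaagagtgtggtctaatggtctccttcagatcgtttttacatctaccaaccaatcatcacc
The 247 bases from chrV:9545289-9545535 are the whole spacer between his-35 (H2A) and his-41 (H2B), with the pooled summit at base 101.
his-35/his-41: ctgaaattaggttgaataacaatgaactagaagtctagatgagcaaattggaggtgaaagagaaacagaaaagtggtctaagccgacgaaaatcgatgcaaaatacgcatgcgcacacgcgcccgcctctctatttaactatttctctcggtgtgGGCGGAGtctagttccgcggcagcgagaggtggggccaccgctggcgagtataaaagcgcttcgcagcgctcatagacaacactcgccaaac
The 300 bases from chrV:9546855-9547154 are the promoter of his-37, an H4 gene outside any divergent pair, from 250 bases before its 5′ end to 50 bases after. The pooled summit fell on base 117.
his-37: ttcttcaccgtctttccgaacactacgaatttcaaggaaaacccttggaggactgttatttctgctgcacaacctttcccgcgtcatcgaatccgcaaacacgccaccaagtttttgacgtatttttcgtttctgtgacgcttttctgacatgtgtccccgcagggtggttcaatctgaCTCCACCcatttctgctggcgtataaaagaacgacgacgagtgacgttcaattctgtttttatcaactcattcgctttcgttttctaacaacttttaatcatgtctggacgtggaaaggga
The spacer of his-14/his-13 (H4 and H3, chrII:13819938-13820209) is shown because the same 272 bases also stand between his-10 and his-9 and between his-25 and his-26.
his-14/his-13: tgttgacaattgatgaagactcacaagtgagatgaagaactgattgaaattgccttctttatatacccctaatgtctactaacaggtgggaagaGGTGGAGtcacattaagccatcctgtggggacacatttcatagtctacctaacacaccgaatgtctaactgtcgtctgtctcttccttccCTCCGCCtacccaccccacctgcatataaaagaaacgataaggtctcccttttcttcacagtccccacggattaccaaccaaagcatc
The spacer of his-50/his-49 (H4 and H3, chrV:8847705-8847942) is shown because the same 238 bases also stand between his-28 and his-27.
his-50/his-49: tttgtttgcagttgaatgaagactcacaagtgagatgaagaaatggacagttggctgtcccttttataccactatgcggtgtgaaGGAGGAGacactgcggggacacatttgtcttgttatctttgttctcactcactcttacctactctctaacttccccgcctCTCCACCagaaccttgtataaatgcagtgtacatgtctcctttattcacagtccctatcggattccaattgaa
The capitals show the shared element at 1 to 3 places in each of the 7 sequences, in regions with a peak and in those without.

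Histone genes carried peaks of the most stringent deposited list at 2 places, the H4/H2A pair his-67/his-68 on chromosome I and the H4/H3 pair his-60/his-59 on chromosome IV, and weaker peaks at many others. The authors also deposited a list thresholded by irreproducible discovery rate (IDR), a measure of whether replicates rank a peak alike. In the IDR list 4 of the 72 members (5.56%) had one in their window, against 1.65% of all protein-coding genes. Those 4 members shared 2 peaks. In the list called on both replicates pooled, which held 30000 mostly weak peaks, 35 members (48.6%) had a peak, against 40.5% of all genes. The replicate 1 list gave 33 members (45.8%, all genes 40.7%) and the replicate 2 list 30 (41.7%, all genes 40%). These counts let both genes of a pair share a peak. With each peak given to its nearest 5′ end only, 21 members (29.2%) had a pooled peak, against 35.1% of all genes, so the members' share was then below that of all genes. For the IDR list it was 2 members (2.78%) against 1.18%.

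The share of genes with a peak of deposited q-value under 0.05 was higher among histone genes than among all genes, with few distinct peaks behind the counts. In the pooled list 11 members (15.3%) had such a peak, against 3.24% of all genes. The numbers were 9 members (12.5%, all genes 3.73%) in replicate 1 and 7 (9.72%, all genes 2.76%) in replicate 2. Both replicates had one for 6 members (8.33%, all genes 1.64%), his-67, his-68, his-60, his-59, his-31 and his-32. Over the 3 lists 12 members (16.7%, all genes 5.16%) had a peak with a q-value under 0.05, the 11 of the pooled list and the H1 gene his-24. The 11 members of the pooled list shared 6 distinct peaks. Depth is unknown, since the lists hold no read numbers, and no test over genes was made, because near-identical copies and shared peaks are not independent.

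The deposited signal of each peak is the authors' score, whose scale is not stated, so it is used to rank peaks within a list. The 35 members with a pooled peak had a median signal of 43.1, against 34.8 for the 8093 genes of the whole annotation with one. As a percentile of the list, where 100 is the strongest peak, the median was 81.1 for the members and 60.1 for all genes. The medians were 80.5 against 59.8 in replicate 1 and 90.3 against 58.8 in replicate 2. Histone-gene peaks thus stood higher in all 3 lists than the peaks of genes in general, while 34 members (47.2%, all genes 39.9%) had no peak in any list.

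**Figure D1:**
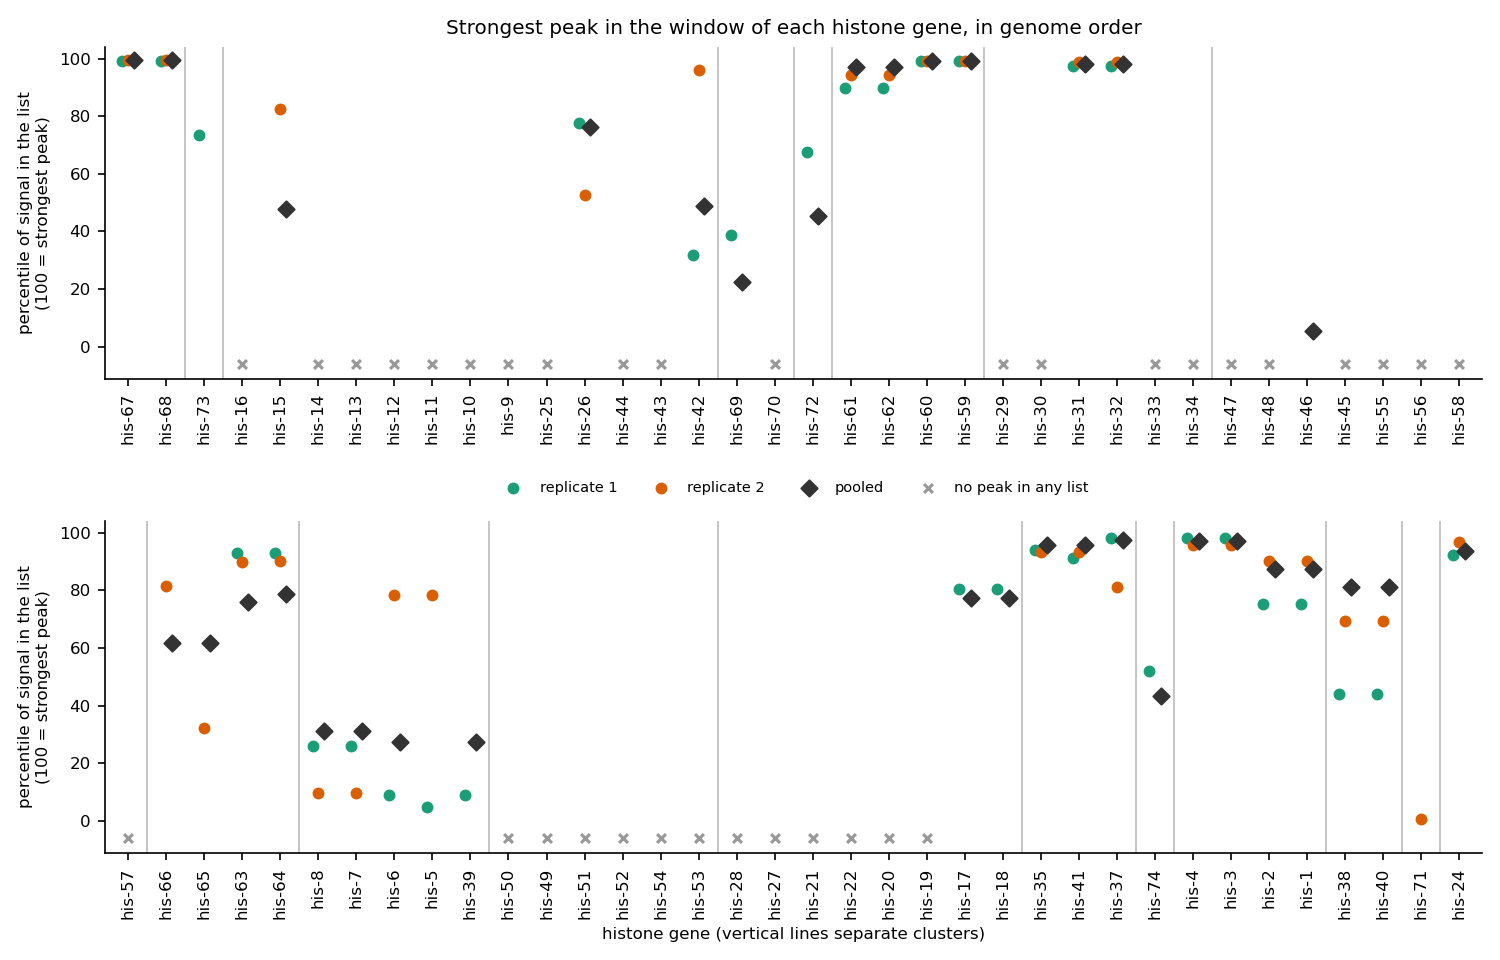
Percentile of the strongest peak in the window of each of the 72 histone genes within its list (vertical axis, 100 is the strongest peak), for replicate 1, replicate 2 and the pooled list, with genes in genome order along the horizontal axis and vertical lines between clusters. Crosses mark the 34 genes with no peak in any list, and the pairs his-67/his-68 and his-60/his-59 stand near 100 in all 3 lists.

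Which members had a peak moved with how much of the window could be told apart from the rest of the genome. For each window the share of 36-base words that occur once in the genome, on either strand, was computed. Its median was 20.7% over the 72 members and 100% over all genes. Under 20% of the window was unique for 36 members, 20 to 80% for 17 and at least 80% for 19, whereas 18397 of the 19973 genes, or 92.1%, were in the highest class. For 19 members it was under 0.5%. With 50-base words the members' median was 21.5%, and the length of the reads is not known from the labels.

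In the lowest class 4 of 36 members (11.1%) had a pooled peak, against 2.42% of the 289 genes of that class. In the middle class it was 15 of 17 (88.2%, all genes of the class 23.2%), and in the highest class 16 of 19 (84.2%, all genes of the class 42.3%). With a q-value under 0.05 the counts were 0 of 36 in the lowest class (all genes 0%), 2 of 17 in the middle class (11.8%, all genes 1.86%) and 9 of 19 in the highest (47.4%, all genes 3.39%). Those 9 members rest on 5 distinct peaks. All 4 members with an IDR peak were in the highest class (21.1% of 19, all genes of the class 1.73%). Among genes with mostly unique windows, therefore, a larger share of histone genes than of all genes had a peak by each of these rules. These counts let both genes of a pair share a peak. The assignment of each peak to its nearest 5′ end only was not made by class.

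In the pooled list the median signal of the members with a peak was 37.9 in the lowest class, 41.1 in the middle class and 68.7 in the highest. In replicate 1 it was 27.6 for the 2 such members of the lowest class, 23.3 in the middle class and 35.4 in the highest, so the lower classes had no fixed order. The 16 members of the highest class with a pooled peak had that median of 68.7 and a median percentile of 96.9, against 34.9 and 60.5 for all genes of that class with a peak. The 34 members with no peak in any list had a median unique share of 0.0682%, and 32 of them were in the lowest class. Repeated sequence thus went together with missing peaks, among all genes as among histone genes: 97.2% of the 289 genes of the lowest class had no peak in any list. How reads from copies were placed is not stated in the labels, and its part in the absence of peaks was not tested.

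**Figure D2:**
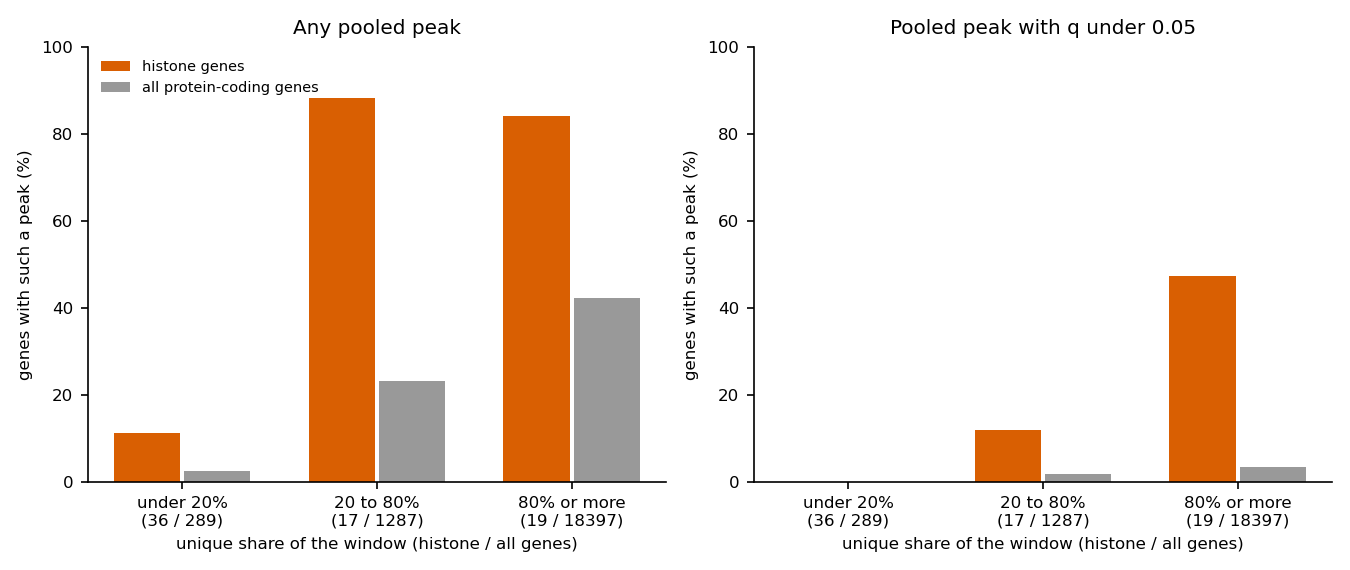
Share of genes with a pooled peak (left) and with a pooled peak of q-value under 0.05 (right), as a percentage, by the unique share of the window, for histone genes and all protein-coding genes, with the gene numbers of each class under the bars. On the right the histone share is 47.4% in the most unique class against 3.39% of all genes.

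**Figure D3:**
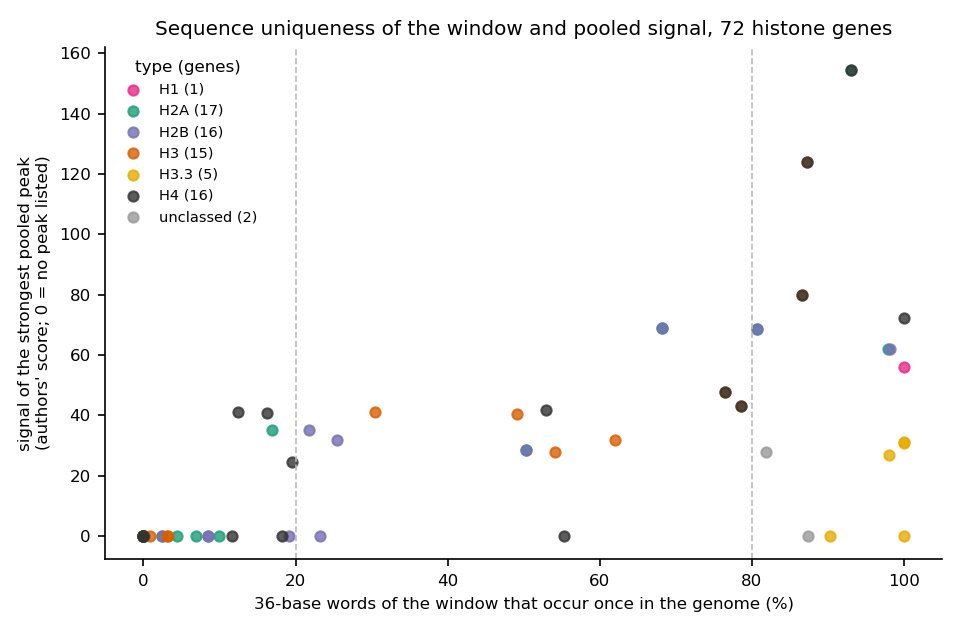
Signal of the strongest pooled peak (authors' score, vertical axis, drawn at 0 where no peak is listed) against the percentage of 36-base words of the window that occur once in the genome, for the 72 histone genes coloured by type, with dashed lines at 20% and 80%. Members of a pair that share a peak and a unique share lie on the same point, and the highest signal at under 50% unique is 41.1.

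The strongest peak was at his-67/his-68, an H4 gene (chrI:9988452-9988763, minus strand) and an H2A gene (chrI:9989132-9989515, plus strand). Its signal was 154.4 in the pooled list (rank 191 of 30000), 87.3 in replicate 1 (rank 212) and 73.8 in replicate 2 (rank 158). The peak thus ranked within the strongest 300 of each list. The pooled summit lay -11 bp from the middle of the 368 bp spacer and 173 bp upstream of his-67. The replicate summits lay at -51 and -13 bp from the middle. All 36-base words around the summit were unique (100%).

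The next was at his-60/his-59, an H4 gene (chrIV:7487681-7487992, minus strand) and an H3 gene (chrIV:7488249-7488659, plus strand). Its signal was 124.1 in the pooled list (rank 277), 72.8 in replicate 1 (rank 297) and 51.4 in replicate 2 (rank 285). Here the summit was not between the genes: the pooled and replicate 2 summits lay 41 bp inside the coding sequence of his-60, and that of replicate 1 lay 130 bp inside. A second, weaker peak of the pooled list had its summit in the spacer (signal 51.1, rank 2860), and in replicate 1 such a spacer peak reached rank 484 (signal 56.2). Around the main summit 78.3% of the words were unique.

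Just below the IDR list stood his-31/his-32 on chromosome IV, the H4/H3 pair at chrIV:8333672-8333983 and chrIV:8334305-8334715. Its strongest pooled peak had a signal of 79.9 (rank 607, q-value 0.00412), while the last peak of the IDR list had 86.2. Replicate 1 gave 47.6 (rank 733) and replicate 2 gave 44.2 (rank 395). The summits of the 3 lists did not coincide: the pooled one lay beyond the far end of his-32, that of replicate 1 in the spacer 103 bp before his-32, and that of replicate 2 inside his-32. The pooled list also had a spacer peak, of signal 77.6 (rank 660), so this pair had more than 1 peak of similar signal.

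The other members with a pooled q-value under 0.05 were his-37, his-4/his-3 and his-61/his-62. The H4 gene his-37 (chrV:9547105-9547607, plus strand, with an intron) had a pooled signal of 72.1 (rank 806), 52.1 in replicate 1 (rank 582) and 22.7 in replicate 2 (rank 5702). Its summits lay within 134 bp upstream of the 5′ end in all 3 lists, but replicate 2 ranked the peak far lower than replicate 1. The H2B/H2A pair his-4/his-3 (chrV:16040144-16040515 and chrV:16040808-16041191) had a peak in the spacer in each list, with signals of 69.0 (pooled, rank 909), 51.1 (replicate 1, rank 600) and 31.9 (replicate 2, rank 1261). At his-61/his-62 (H2A and H2B, chrIV:7485834-7486217 and chrIV:7486545-7486916) the pooled signal was 68.7 (rank 918), with 32.8 in replicate 1 (rank 3081) and 29.8 in replicate 2 (rank 1725), and its summit lay beyond the 3′ end of his-61, 421 bp from that gene's 5′ end.

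Pairs further down the pooled list had no q-value under 0.05 in any list. The H2A/H2B pair his-35/his-41 (chrV:9544659-9545288 and chrV:9545536-9546264), both genes with an intron, had its pooled peak in the spacer, at -23 bp from the middle, with a signal of 61.9 (rank 1316). In replicate 2 the same place gave 28.9 (rank 1996), while in replicate 1 the strongest peaks in the 2 windows lay elsewhere (37.2 and 34.1) and the spacer peak had 24.2 (rank 10067). The H3/H4 pair his-2/his-1 had a pooled signal of 47.7 (rank 3810) and the H4/H3 pair his-38/his-40 one of 43.1 (rank 5662), both with the summit in a coding sequence.

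By pair, a summit of the pooled list lay between the 5′ ends of 6 of the 31 divergent pairs, and in the window of either gene for 16. The numbers were 7 and 13 pairs in replicate 1, 5 and 14 in replicate 2, and 1 and 2 in the IDR list. With a q-value under 0.05 the summit was in the spacer of 3 pairs in the pooled list (his-67/his-68, his-31/his-32 and his-4/his-3). Counted as the strongest peak of each member, the 23 distinct pooled peaks had 3 summits between divergent 5′ ends, 7 in coding sequence, 2 in other parts of genes and 11 in other intergenic places. Members of divergent pairs had 17 of these 23 peaks, and the others belong to genes with no divergent partner. At the 8 pairs whose spacer was fully unique, the strongest pooled summit lay in the spacer for 3. The median summit position was -196 bp from the 5′ end (minus is upstream) over the 35 members and -214 bp over all genes with a pooled peak.

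Of those 23 peaks, 12 were the strongest for at least 2 members, and for 21 the nearest protein-coding 5′ end belonged to a histone gene. The exceptions were the peak of his-17/his-18, 373 bp from frpr-13, and that of his-46, 88 bp from B0035.21. The first overlapped no replicate 2 peak, and the second no peak of either replicate. Within a narrower window (500 bp upstream to 100 bp downstream) 19 members (26.4%) had a pooled peak, against 21.2% of all genes. Small RNA genes (tRNA, snoRNA, snRNA, rRNA or microRNA) lay within 500 bp of the summit at 2 of the 23. They were an snRNA gene near the peak of his-42 and a snoRNA gene near that of his-72, both peaks weak in the pooled list. The his-42 peak had rank 15389 in the pooled list and 20445 in replicate 1, but rank 1162 in replicate 2 (signal 32.5, q-value 0.0616).

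**Figure D4:**
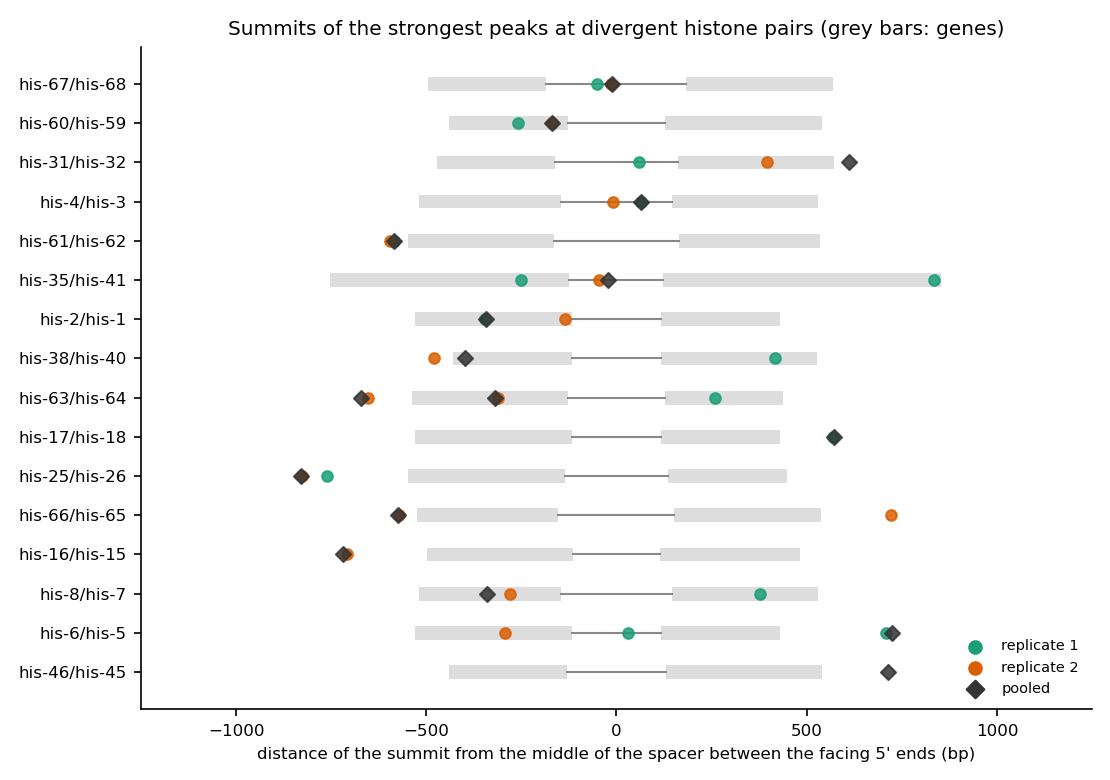
Distance in bp of the summit of the strongest peak of each member from the middle of the spacer (horizontal axis, 0 is the middle), for replicate 1, replicate 2 and the pooled list, at the 16 divergent pairs with a pooled peak in the window of either gene. Grey bars are the genes and the thin line is the spacer, and at his-67/his-68 the summits of all 3 lists fall in the spacer, at -51, -13 and -11 bp.

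Members were grouped into 13 clusters of at least 2 genes, with at most 20 kb between neighbouring 5′ ends, and 5 members stood alone. The cluster of his-61, his-62, his-60 and his-59 on chromosome IV (2826 bp) was the only one of 4 or more genes in which each member had a peak in all 3 lists and a pooled q-value under 0.05. In the chromosome V cluster of his-4, his-3, his-2 and his-1 (2688 bp) the 4 members also had a peak in all 3 lists, 2 of them with a pooled q-value under 0.05. The windows of both clusters were mostly unique, with medians of 83.9% and 72.3%.

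The larger clusters had few peaks. In the 13-gene cluster on chromosome II, from his-16 to his-42, 3 members had a pooled peak (his-15, his-26 and his-42), and the highest signal was 40.6 (rank 7097). Its other members, his-16, his-14, his-13, his-12, his-11, his-10, his-9, his-25, his-44 and his-43, had no peak in any list, and the median unique share of the cluster was 2.46%. In the 8-gene chromosome IV cluster from his-47 to his-57 the H4 gene his-46 alone had a pooled peak (24.4, rank 28381), while his-47, his-48, his-45, his-55, his-56, his-57 and his-58 had none in any list.

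The most repeated genes were on chromosome V. In the cluster of his-50, his-49, his-51, his-52, his-54 and his-53 not a single 36-base word of the windows was unique, and none of the 6 had a peak in any list. The 8-gene cluster from his-28 to his-18 holds further copies of the same spacers: his-28, his-27, his-21, his-22, his-20 and his-19 had no peak in any list, and the end pair his-17/his-18, which is partly unique, shared a pooled peak of 41.1 (rank 6787) beyond his-18. In the chromosome IV cluster from his-29 to his-34 the H2A and H2B genes his-29, his-30, his-33 and his-34 had no peak in any list, at unique shares of 0.136 to 8.46%, and stand on both sides of his-31/his-32, at 86.6%. Within that stretch of 5297 bp the unique pair had peaks and the repeated pairs had none.

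By histone type, a pooled peak was present at 6 of 17 H2A, 6 of 16 H2B, 8 of 15 H3, 10 of 16 H4 and 3 of 5 H3.3 genes, the H1 gene, and 1 of the 2 unclassed genes. The shares were 35.3% for H2A, 37.5% for H2B, 53.3% for H3 and 62.5% for H4, against 40.5% of all genes. A q-value under 0.05 in the pooled list was reached by 3 H2A (17.6%), 2 H2B (12.5%), 2 H3 (13.3%) and 4 H4 genes (25%), against 3.24% of all genes. The windows of the types differed in their unique share, with medians of 4.43% for H2A, 13.8% for H2B, 30.4% for H3 and 36.3% for H4, and the types share peaks through their pairs. Whether the types differ beyond this was not tested.

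The linker histone gene his-24 (chrX:14490094-14491119, plus strand), with a fully unique window, had signals of 56.1 in the pooled list (rank 1938), 35.4 in replicate 1 (rank 2298) and 34.3 in replicate 2 (rank 922). Its q-value was 0.0277 in replicate 2, 0.124 in replicate 1 and 0.139 in the pooled list, and the summits lay downstream of the 5′ end, at 91 bp in the pooled list. The replicates thus differed in whether this peak passed. In replicate 2 this peak overlapped a stronger one (signal 41.2, rank 490), whose summit lay outside the window.

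The H3.3-type genes had weak peaks or none, although their windows were 90.2 to 100% unique. The pooled signals were 26.8 at his-69 (rank 23238), 31.0 at his-72 (rank 16425) and 30.7 at his-74 (rank 16946), all below the median of the pooled list, 32.1. his-71 had a peak only in replicate 2 (12.6, rank 29745), and his-70 had none in any list. The H3.3 genes were thus members with unique windows and no strong peak.

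Of the 72 members, 26 had a peak in both replicate lists (36.1%, all genes 23%), 7 in replicate 1 only, 4 in replicate 2 only and 35 in neither. Presence was alike in the replicate lists for 61 members (84.7%), against 65.2% of all genes. Of the 35 members with a peak in neither list, 33 had windows under 20% unique, and among the other 36 members presence was alike for 27 (75%). The strongest peaks of the 2 replicates overlapped by at least 1 bp for 18 of the 26. Of the 23 distinct pooled peaks, 19 overlapped a replicate 1 peak, 17 a replicate 2 peak and 14 both. Over those 14 the Spearman rho of the replicates' signals was 0.586, a description of 14 pooled peaks called with the same control alignment. The neighbouring pooled peaks of his-63 and his-64 overlap the same replicate peaks, so those replicate values were counted for both. Among as many of the strongest peaks as the IDR list holds, replicate 1 had 4 members (all genes 1.58%) and replicate 2 had 6 (all genes 1.44%), the 2 additional ones being his-31 and his-32.

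Short sequence motifs were compared between histone promoters and all promoters. In the 300 bases from 250 before to 50 after the 5′ end, matches to 8 short motifs were counted on both strands over the 72 members, their 51 distinct promoters and all 19973 genes. The facing promoters of a divergent pair overlap, so a match between them can count for both genes. The 51 distinct promoters are therefore not separate regions. CTCCNCC was present in 91.7% of the members, 88.2% of the distinct promoters and 13.7% of all promoters. Its form CTCCGCC, counted within it, was present in 61.1%, 60.8% and 4.73%. GGGCGG, whose letters can overlap the reverse complement of CTCCGCC, was present in 41.7%, 47.1% and 7.83%, and the TATA box TATAAA in 65.3%, 62.7% and 37.9%. The GC content was 47.3% over the members and 34.8% over all promoters.

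CTCCNCC was found in all 62 members of divergent pairs and in 4 of the 10 others. It was found in all 36 members with windows under 20% unique, in 14 of the 19 with windows at least 80% unique, and in the 11 with a pooled q-value under 0.05. All 31 spacers held it, 19 of them on both strands, with a median of 2 copies and up to 4. The element therefore did not separate pairs with a peak from pairs without one.

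For short sites of homeodomain proteins the share was lower in histone promoters than in all promoters. TGATNNAT, a short form of the composite site of Hox proteins with their PBC partners, was present in 9.72% of the members, 5.88% of the distinct promoters and 23.6% of all promoters. The homeobox site TTAATTA was present in 1.39%, 1.96% and 9.33%. Neither was found in the promoters of the 11 members with a pooled q-value under 0.05. GAGAGA repeats were present in 45.8%, 43.1% and 21.8%, and CCGCAC in 20.8%, 19.6% and 4.31%. CCGCAC too was found in none of the promoters of those 11 members. These are matches of letters within the promoter, counted at a GC content of 49.6% in the 11 members. No motif was counted around the summits. For his-31, his-32, his-61, his-62 and his-59 the pooled summit lay outside the promoter, at -772, 450, 421, -749 and -298 bp from the 5′ end. Whether the peaks of these genes hold such sites was not tested.

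**Figure D5:**
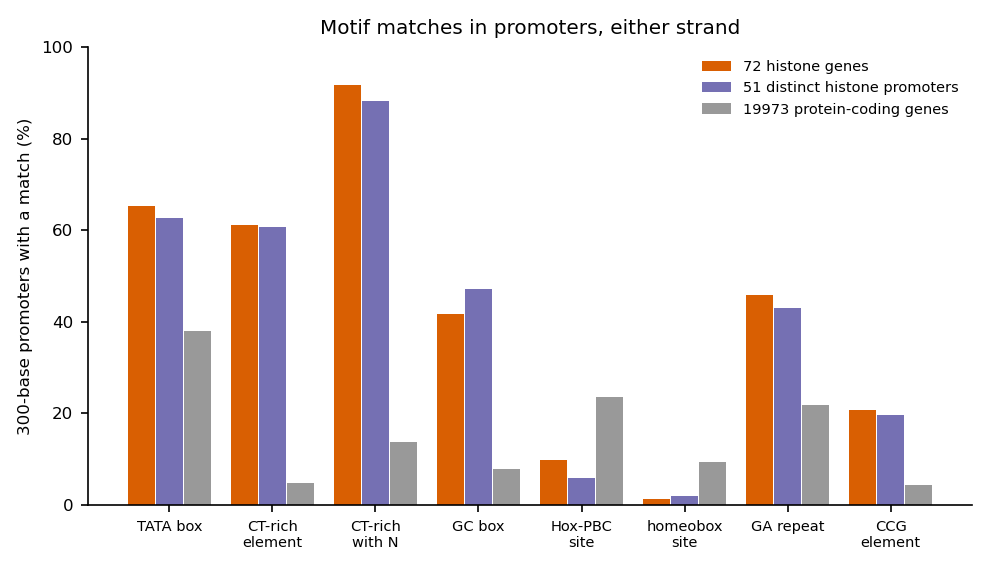
Percentage of 300-base promoters with a match on either strand to each of 8 short motifs, for the 72 histone genes, their 51 distinct promoters and all 19973 protein-coding genes. CT-rich with N is CTCCNCC, present in 91.7% of the histone genes and 13.7% of all genes, while the Hox-PBC site TGATNNAT is present in 9.72% and 23.6%.

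For comparison, 25 genes with a role in histone supply or chromatin assembly were read in the same way: linker histone genes of the hil- group, variant histones, histone chaperones and the stem-loop binding protein gene cdl-1. A pooled peak was present at 19 of the 25 (76%, all genes 40.5%) and a pooled q-value under 0.05 at 3 (12%, all genes 3.24%). A q-value under 0.05 in any of the 3 lists was present at 8 (32%, all genes 5.16%), and an IDR peak at 1 (4%, all genes 1.65%). Of all 72 histone genes 48.6% had a pooled peak, and of the 19 with mostly unique windows 84.2%. In this list 23 genes had windows at least 80% unique. The 1 gene with an IDR peak was chaf-2, which encodes a subunit of the chromatin assembly factor that places H3 and H4 on new DNA, with signals of 133.3 in the pooled list (rank 242), 63.5 in replicate 1 (rank 388) and 72.4 in replicate 2 (rank 164). It stood between his-67/his-68 and his-60/his-59 in the pooled list. The other genes with a pooled q-value under 0.05 were unc-85, an Asf1-type H3/H4 chaperone (70.1, rank 866), and htz-1, the H2A.Z variant (65.3, rank 1082). The share with a pooled q-value under 0.05, 12%, stood beside 15.3% of all 72 histone genes, 47.4% of the 19 with mostly unique windows and 3.24% of all genes. With a q-value under 0.05 in any of the 3 lists, the 32% of the related genes stood above the 16.7% of all histone genes and below the 52.6% of those with mostly unique windows. In replicate 1 alone the shares were 24%, 12.5% and 36.8%. In replicate 2 alone they were 8%, 9.72% and 36.8%. By this q-value rule the related genes stood above all histone genes in replicate 1, and below them in replicate 2 and the pooled list. The replicate 2 shares rest on 2 of 25 and 7 of 72 genes. By any listed peak the related genes stood above all histone genes in each list. The shares were 76% against 48.6% in the pooled list and 72% against 45.8% in replicate 1 (all genes 40.7%). In replicate 2 they were 60% against 41.7% (all genes 40%).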

How the data were processed

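The data are peak lists from anti-GFP ChIP-seq on 2 biological replicates, per the labels. According to the deposited descriptions, the authors called replicate and pooled peaks against 1 control alignment and derived the IDR list from these 3 lists. The sources used here name no aligner, peak caller or IDR threshold. Control reads were not analysed here. The deposited signal is a score of unstated scale, used to rank peaks within a list, with ties broken by position. A second deposited column is −log10 of the q-value. The q-value was under 0.05 in 1146 pooled, 1380 replicate 1 and 1082 replicate 2 peaks of 30000 each. The IDR peaks are the strongest pooled peaks, so the 2 lists are not independent. The summit was the centre of the peak in 99.6% of pooled peaks, and peaks were about 420 bp wide, so positions within a spacer are approximate. Depth is unknown.

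Genes came from Ensembl release 115, product names and symbols from RefSeq (72 of 72 matched), and sequence from the RefSeq copy of the same assembly; the first codon of all 72 members read ATG and no peak ended beyond a chromosome end. Divergent pairs had facing 5′ ends at most 2000 bp apart. Word uniqueness was counted over both strands of the genome, and the counting and the assignment of peaks were tested on simulated data. Values are counts beside the same counts over all nuclear protein-coding genes, with no test over genes. The replicates give 1 value each, with no comparison between groups. Members named are those with an IDR peak or a q-value under 0.05 in any list, the 20 of highest pooled signal, their partners, the H1 and H3.3 genes, those with no peak, and those just inside and outside the IDR list; other members are named to complete a count, chosen after seeing their values. The members, lists and motifs were chosen with earlier results of these data known. Alternatives were other windows and assignments, subsets of members and peaks, and each replicate alone. Computations used Python 3.11.15, pandas 2.3.3, numpy 2.4.6, scipy 1.17.1, biopython 1.88 and matplotlib 3.10.9.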

Additional observations from a re-analysis of the deposited data

How the results depend on the processing

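Over 35 alternatives for 6 results, 21 stayed close to the value reported and 14 moved. A median was close if it changed by less than the standard deviation of the 2 replicates' values. A count was close within a set ratio, a loose rule. By it the 35 genes with a pooled peak stayed close at 42 with the window from 2000 bp upstream, and at 43 when the peak had only to overlap the window. The 35 histone genes with a pooled peak became 19 with the window from 500 bp upstream to 100 bp downstream, 21 with each peak given to its nearest 5′ end, 16 with mostly unique windows only, 11 with a q-value under 0.05 and 11 with 2 times as many of the strongest peaks as the IDR list holds, and 30 to 33 with a single replicate's list. The 4 with an IDR peak became 2 with nearest 5′ ends only. The 4 among as many of the strongest pooled peaks as the IDR list holds became 2 with a list smaller by a factor of 2, 11 with a list larger by a factor of 2, and 4 to 6 with a single replicate. The median percentile of 81.1 became 95.6 in the narrower window, 96.9 with mostly unique windows, and 80.5 to 90.3 with a single replicate. The median summit position of -196 bp became -97 bp when the nearest peak was taken and -170.5 to -133 bp with a single replicate. The 1 pair with an IDR peak in its spacer became 3 with pooled peaks of q-value under 0.05. The shorter lists and narrower rules count fewer peaks or genes by construction, and the longer lists and wider rules count more. For the medians and the single replicates the cause was not tested. With nearest 5′ ends only, the members' share with a pooled peak, 29.2%, was below the 35.1% of all genes. No paired analysis was possible because the series has 1 group and no comparison between groups. With 2 replicates, unknown depth and shared sequence, an absent peak says only that none was listed.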
